A study of Homo sapiens with 8 samples.

Results

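The 10 genes described here were grouped as nuclear and neuroblastoma long noncoding RNAs: MALAT1, NEAT1, NORAD, MEG3, H19, KCNQ1OT1, MIR17HG, MIR22HG, CASC15 and NBAT1. They were chosen by name, and each matched 1 row of the deposited counts, which held 58787 gene identifiers. RNA sequencing was done in IMR32, an established human neuroblastoma line labelled as wild-type neuroblasts, so every value comes from a single cell line. Cells were given the rocaglate CR31B at its IC50 or 0.1% DMSO as the vehicle, and RNA was taken for sequencing after 6 h, with 4 libraries in each group. Rocaglates clamp the RNA helicase eIF4A onto purine-rich mRNA and so hold back the start of translation. Both replicate 1 libraries were labelled paired-end and the other 6 single-end. Pair 1 (CR31B replicate 1 and DMSO replicate 1) is therefore given apart from pairs 2 to 4 throughout. Earlier results of these data had also shown pair 1 running the other way, so the split was not made blind to the values.

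Long noncoding RNAs work as RNA and are not translated into protein. They act in different places: NEAT1 is the scaffold of nuclear paraspeckles, MALAT1 collects in nuclear speckles, and NORAD binds Pumilio proteins such as PUM2 in the cytoplasm. MEG3, H19 and KCNQ1OT1 are imprinted, which means that they are read from the chromosome of 1 parent only, and H19, MIR17HG and MIR22HG are cut to release microRNAs. CASC15 and NBAT1 overlap on opposite strands at the neuroblastoma risk locus on chromosome 6, where NBAT1 is known as a tumour suppressor that works with the histone methyltransferase EZH2.

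Coordinates are those of GENCODE release 29 on GRCh38. MALAT1 lies at chr11:65497688-65506516 and NEAT1 at chr11:65422774-65445540, both on the plus strand and next to each other. NORAD lies at chr20:36045622-36050960 on the minus strand. The longest transcript of each of these RNAs, and of KCNQ1OT1 (chr11:2608328-2699994, minus strand), is annotated as a single exon. H19 (chr11:1995176-2001470, minus strand) and MEG3 (chr14:100779410-100861031, plus strand) are spliced. MIR17HG lies at chr13:91347820-91354579 on the plus strand and MIR22HG at chr17:1711493-1717174 on the minus strand. CASC15 (chr6:21664772-22368328, plus strand) runs across NBAT1 (chr6:22134957-22147193, minus strand), and 227 exon bases, 11.7% of NBAT1, are shared on opposite strands. The name of the deposited table carries the word reverse, which may refer to strand, but no source used here states the strand setting, so whether reads in those bases were told apart is not known.

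The microRNAs made from the 3 host RNAs are shown because MIR22HG, H19 and MIR17HG were among the members that fell in pairs 2 to 4. Sequences are from RefSeq (GRCh38.p14), 5′ to 3′, with the seed, bases 2 to 8, in capitals.
miR-17-5p: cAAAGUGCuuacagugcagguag
miR-20a-5p: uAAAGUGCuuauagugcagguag
miR-18a-5p: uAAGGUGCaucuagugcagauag
miR-19a-3p: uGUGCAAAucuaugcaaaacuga
miR-19b-3p: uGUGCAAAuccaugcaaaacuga
miR-92a-3p: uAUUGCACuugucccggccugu
miR-22-3p: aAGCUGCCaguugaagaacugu
miR-675-5p: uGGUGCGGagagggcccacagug
The seed AAAGUGC is shared by miR-17-5p and miR-20a-5p, which differ at 2 of 23 bases, and GUGCAAA by miR-19a-3p and miR-19b-3p, which differ at 1 of 23. All these microRNAs lie in annotated exons of their hosts. The precursor genes MIR17, MIR18A, MIR19A, MIR20A, MIR19B1, MIR92A1, MIR22 and MIR675 had 0 counts in all 8 libraries, so the values below are those of the host RNAs and say nothing of the mature microRNAs.

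NORAD is shown by its Pumilio sites, since binding of Pumilio proteins is its best known role. A search of its 5339-base transcript, on the transcript strand, for UGUANAUA found 15 copies. Of 4337 transcripts between 0.8 and 1.2 times that length, 41.4% held at least 1 copy and 3, NORAD included, held 15 or more. MALAT1, H19 and MIR22HG held 0 copies in their longest transcripts and NEAT1 6. Each site below is on the minus strand, with the 8 bases of the element in capitals.
NORAD element 1, chr20:36050193-36050200: uggaaggccugUGUAUAUAauaugaaaaag
NORAD element 5, chr20:36049503-36049510: uguguauauagUGUACAUAaaggacagacg
NORAD element 6, chr20:36049129-36049136: aaauaccacuuUGUAAAUAucuuuuugcua
NORAD element 12, chr20:36047679-36047686: uuacugugcugUGUAUAUAguguauauaag
A match is a description of the letters and not evidence of binding.

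The promoters of NORAD and MIR22HG, the members with the smallest adjusted p values in pairs 2 to 4, are shown from 250 bases before to 50 after the RefSeq start. Capitals mark CACGTG (the E-box read by MYC family factors), TGACGTCA (CRE), TGACTCA (AP-1) and CCAAT, searched on both strands, so that ATTGG is CCAAT on the other strand.
NORAD, chr20:36050911-36051210, minus strand: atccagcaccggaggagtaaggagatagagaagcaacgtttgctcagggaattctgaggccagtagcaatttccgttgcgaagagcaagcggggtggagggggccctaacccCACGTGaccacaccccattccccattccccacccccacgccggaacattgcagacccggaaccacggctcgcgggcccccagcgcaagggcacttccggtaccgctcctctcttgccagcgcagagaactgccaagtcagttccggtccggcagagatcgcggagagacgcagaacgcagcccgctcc
MIR22HG, chr17:1716161-1716460, minus strand: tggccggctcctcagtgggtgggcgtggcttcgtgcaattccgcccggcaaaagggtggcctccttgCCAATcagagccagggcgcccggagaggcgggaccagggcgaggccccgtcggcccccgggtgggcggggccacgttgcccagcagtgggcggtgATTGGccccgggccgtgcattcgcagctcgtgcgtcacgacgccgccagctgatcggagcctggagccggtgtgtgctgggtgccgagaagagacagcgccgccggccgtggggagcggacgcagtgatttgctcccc
The NORAD window held 1 CACGTG, 138 bases before the start, and none of the other 3 motifs. The MIR22HG window held 2 CCAAT matches and none of the other 3. Over 35116 promoter windows of the same length, 7.26% held CACGTG and 34.6% held CCAAT. RefSeq windows were matched for 8 of the 10 genes, and not for NEAT1 and KCNQ1OT1.

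Total counts were between 43687828 and 64715535 per library, of which the 10 members took 0.0733% to 0.124%. All 10 neuroblast markers, among them TH, DBH, HAND2, GATA3 and ISL1, were above 1 CPM, where CPM is the count scaled to a common library total with TMM factors, and their summed level was 2894 to 4157 CPM. Markers of other cell types were low: the 5 fibroblast genes summed to 17.4 to 32.3 CPM, the 4 Schwann genes to 2.92 to 8.50, the 5 immune genes to 0.362 to 1.11, the 4 endothelial genes to 0.791 to 2.61, and the 4 epithelial genes to at most 0.234. SOX10, CD3E, CLDN5, KRT5 and KRT14 were at 0 in every library. In pairs 2 to 4, 5 of the neuroblast markers rose and 4 fell, and 0 of the 4 fibroblast markers tested passed (COL1A1 was at 0.07). The 1 Schwann, 2 immune and 1 endothelial marker above the filter on low counts fell, as did 4 of the members. Their part in the members' differences was not tested. In bulk samples, fewer cells of a type and less RNA per cell cannot be told apart.

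The levels of the 10 RNAs spanned more than 3 orders of magnitude when set against exon length. In the 3 DMSO libraries of pairs 2 to 4, NORAD stood at 155.7 ± 8.52 CPM per kilobase of exon (SD, n = 3) and MALAT1 at 21.7 ± 0.672. H19 followed at 14.3 ± 2.81 and MIR17HG at 8.22 ± 1.15. MIR22HG (1.45 ± 0.419) and CASC15 (1.40 ± 0.173) overlapped each other, and so did NEAT1 (0.942 ± 0.132) and MEG3 (0.767 ± 0.134). NBAT1 stood at 0.203 ± 0.0360. KCNQ1OT1 was last at 0.0383 ± 0.00349, spread over an annotated exon of 91667 bases. All other neighbours in this order were separated in those 3 libraries. These levels are counts per annotated exon length, from libraries whose molecule was labelled polyadenylated RNA. Each RNA was divided by the exon bases of all its annotated forms together. For NEAT1 this length was 22767, against 22743 in its longest transcript. For CASC15 it was 13289 against 4461 and for MEG3 23224 against 12990, so their places in the order can depend on this choice. How far the order follows the amounts of RNA in the cell was not tested.

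**Figure D1:**
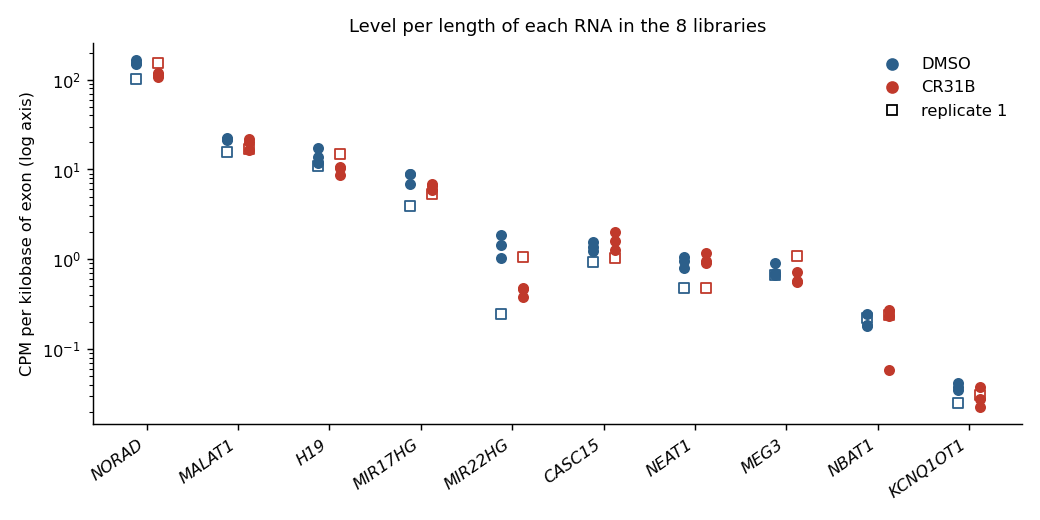
Level of each RNA per length in the 8 libraries, as CPM per kilobase of exon on a log axis; blue is DMSO, red is CR31B and open squares are the replicate 1 libraries. The order runs from NORAD, at 155.7 in DMSO, to KCNQ1OT1, at 0.0383, and differences between the groups are small beside it.

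A member counted as too low to judge where it failed edgeR's filterByExpr or had a median count under 10. By that rule 0 of the 10 were too low. NBAT1 came closest, with 26, 6, 31 and 20 counts in CR31B replicates 1 to 4 and 18, 22, 32 and 18 in DMSO. The 6 counts of CR31B replicate 2 have an exact 95% Poisson interval of 2.20 to 13.1, which covers counting error only. Without that library the NBAT1 log2 fold change in pairs 2 to 4 moved from -0.11 to 0.32.

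In pairs 2 to 4, fitted without the replicate number as a block, 4 of the 10 RNAs fell in CR31B (MIR22HG, NORAD, H19 and MIR17HG) and 0 rose. By edgeR's quasi-likelihood test with Benjamini-Hochberg adjustment, 41.3% of the 16696 genes tested passed an adjusted p of 0.05, 17.6% as lower and 23.8% as higher. The median log2 fold change of the 10 members was -0.32, against -0.01 for all tested genes and -0.12 for the 1902 long noncoding genes tested, of which 10.4% fell and 5.94% rose. With all 8 libraries in the fit and layout as a covariate, 0 genes (0%) and 0 members passed, by edgeR, DESeq2 and limma voom alike. An unadjusted p under 0.05 was reached there by 205 genes in edgeR and 263 in DESeq2, and by 0 members. The smallest adjusted p of a member in that fit was 0.707.

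Pair 1 ran the other way for most of the list. 9 of the 10 members were higher in CR31B in pair 1, while 8, 7 and 8 were lower in pairs 2, 3 and 4. 7 members were lower in all 3 single-end pairs and higher in pair 1. The treatment-by-layout interaction, which tests this difference with the spread of the single-end libraries, passed for 5 members and for 42.5% of the 16518 genes tested. Genes outside the list ran likewise: SOX4 was at -1.09 in pair 1 and 1.18 in pairs 2 to 4, NONO at -0.68 and 0.67, and CPSF6 at 0.75 and -0.75. Among the members, NEAT1, CASC15 and NBAT1 did not mirror in this way. Pair 1 is 1 library per group, so an exchange of its labels, its paired-end layout and the replicate itself cannot be told apart. The labels were used as given, and every pair 1 value, the interaction and the fit of all 8 libraries rest on them.

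**Figure D2:**
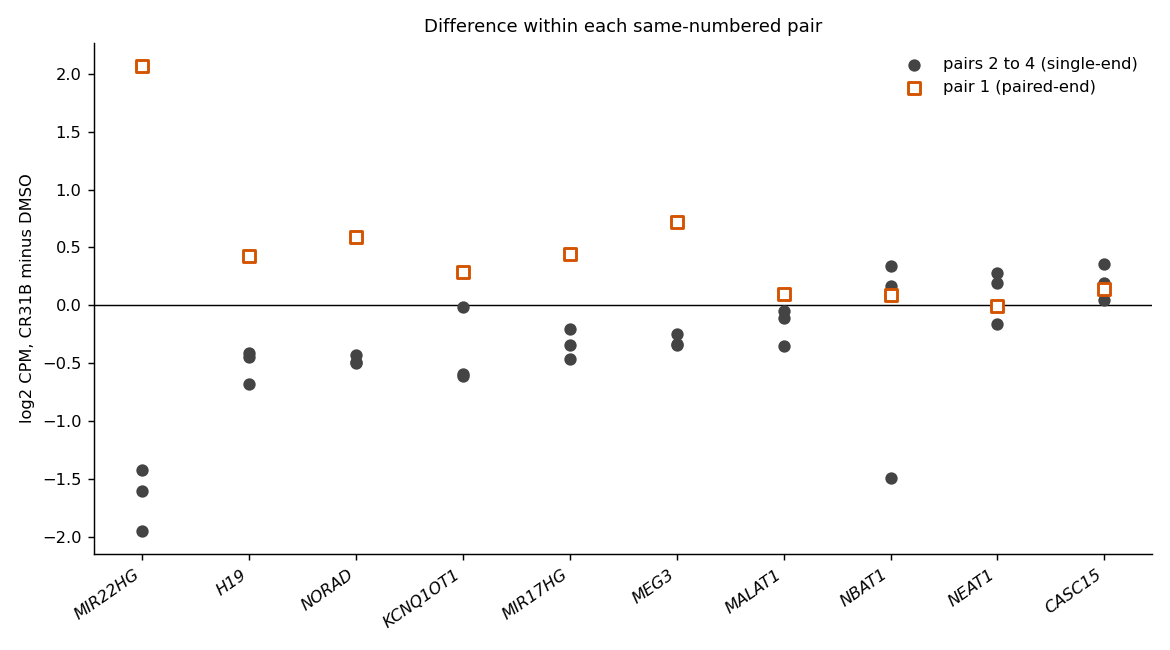
Difference in log2 CPM between CR31B and DMSO within each same-numbered pair (vertical axis) for the 10 RNAs (horizontal axis); dots are pairs 2 to 4 and open squares pair 1. MIR22HG runs from -1.95 to -1.42 in pairs 2 to 4 and stands at 2.07 in pair 1.

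MIR22HG, the host of miR-22, showed the largest change of the 10. Its levels in CR31B replicates 2, 3 and 4 were 1.14, 1.40 and 1.43 CPM, from 60, 81 and 64 counts. The DMSO libraries of the same numbers held 3.09, 4.28 and 5.59 CPM, from 191, 289 and 287 counts. The groups did not overlap, and the DMSO level was 3.24 times the CR31B level. The log2 fold change was -1.70 ± 0.22 (SE; edgeR quasi-likelihood, adjusted p = 0.000155), the 11th lowest of 16696 genes. In pair 1, CR31B held 3.17 CPM (179 counts) and DMSO 0.743 CPM (31 counts), a log2 difference of 2.07. The DMSO library of replicate 1 was thus below all 3 single-end CR31B libraries, and the CR31B library of replicate 1 above the lowest DMSO library. The interaction was 3.79 ± 0.48 on the log2 scale (adjusted p = 0.000147).

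NORAD, the Pumilio-binding RNA, had the highest CPM of the members in every library. CR31B replicates 2, 3 and 4 held 627, 578 and 594 CPM and the DMSO libraries 883, 811 and 799 CPM. The groups did not overlap, the log2 fold change was -0.47 ± 0.06 (SE, adjusted p = 0.000127), and the pairs differed by -0.49, -0.49 and -0.43. In pair 1 the order was reversed, with 813 CPM in CR31B and 541 CPM in DMSO, a difference of 0.59. The CR31B level lay within the single-end DMSO range, and the DMSO level below all 6 single-end libraries. The interaction was 1.06 ± 0.12 (adjusted p = 5.7e-05).

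H19, the imprinted host of miR-675, held 25.1, 31.2 and 30.1 CPM in CR31B replicates 2, 3 and 4 and 34.1, 50.1 and 40.0 CPM in DMSO. The groups did not overlap, and H19 fell by 0.52 ± 0.13 on the log2 scale (SE, adjusted p = 0.00854). In pair 1 it stood at 42.8 CPM in CR31B and 31.8 CPM in DMSO, and the interaction was 0.95 ± 0.26 (adjusted p = 0.0143). Over all tested genes, 52.1% had groups that did not overlap in pairs 2 to 4, and among the members these were 3, MIR22HG, NORAD and H19.

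MIR17HG, the host of the miR-17-92 cluster and a known MYCN target, held 20.9, 24.3 and 22.7 CPM in CR31B replicates 2, 3 and 4. DMSO held 24.1, 30.9 and 31.2 CPM. CR31B replicate 3 and DMSO replicate 2 overlapped by a small margin, and MIR17HG fell by 0.34 ± 0.10 (SE, adjusted p = 0.0216). This call was lost when CR31B replicate 2, CR31B replicate 4, DMSO replicate 3 or DMSO replicate 4 was left out, with adjusted p of 0.0642, 0.0625, 0.0805 and 0.0916. In pair 1 the levels were 18.7 CPM in CR31B and 13.7 CPM in DMSO, both below all 6 single-end libraries, and the interaction was 0.79 ± 0.21 (adjusted p = 0.0133). MIR17HG shares 13.5% of its exon bases with the microRNA genes inside it, and how reads there were counted is not stated.

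**Figure D3:**
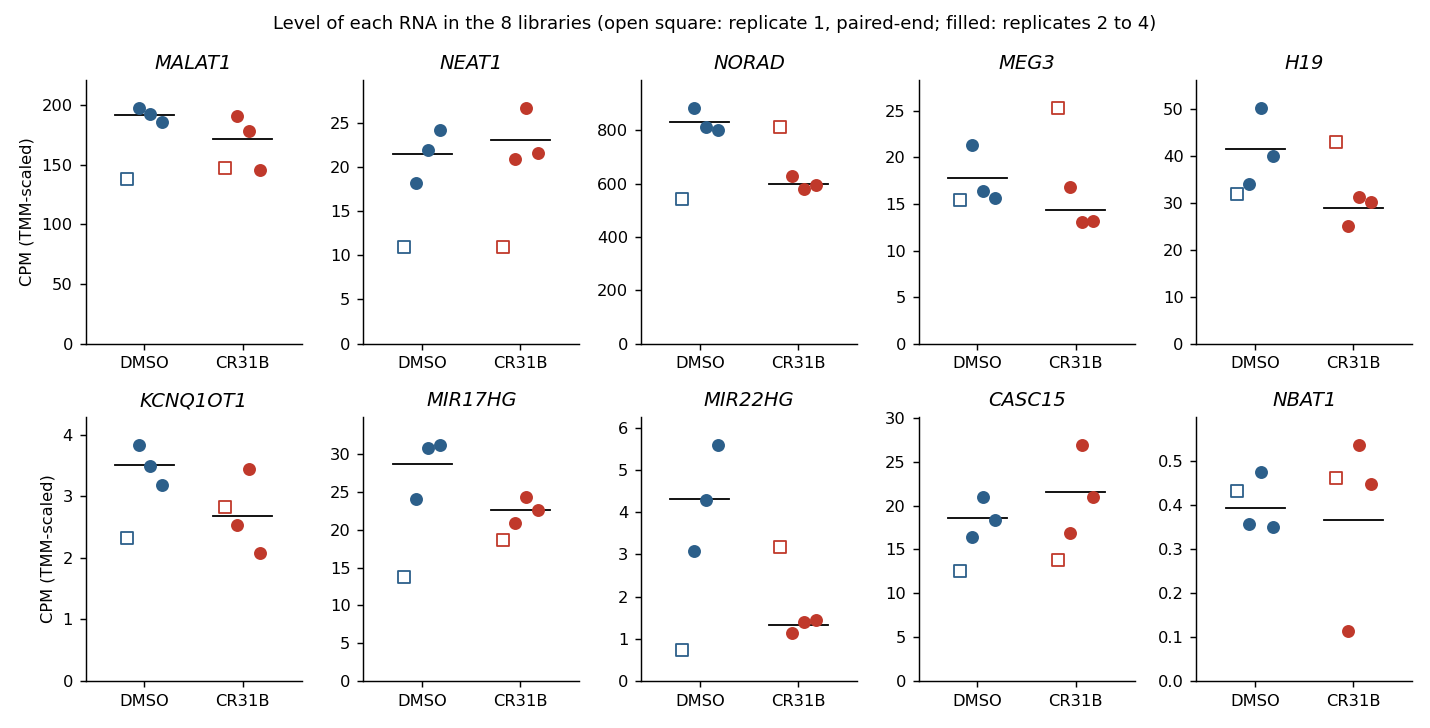
CPM of each RNA (vertical axis, from 0) in the 4 DMSO libraries (blue) and the 4 CR31B libraries (red); open squares are replicate 1, filled points replicates 2 to 4, and the bar is the mean of replicates 2 to 4. For NORAD the filled CR31B points, 578 to 627, lie below the filled DMSO points, 799 to 883, while the open squares are the other way round.

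MEG3, an imprinted RNA lost in several tumours, held 16.9, 13.1 and 13.2 CPM in CR31B replicates 2, 3 and 4 and 21.4, 16.4 and 15.6 CPM in DMSO. The groups overlapped through CR31B replicate 2. The log2 fold change of -0.31 ± 0.14 did not pass (SE, adjusted p = 0.0922), but it did with the replicate number as a block (adjusted p = 0.00167). The single-end pairs differed by -0.34, -0.33 and -0.24. In pair 1 MEG3 stood at 25.3 CPM in CR31B, the highest level of the 8 libraries, and at 15.4 CPM in DMSO. The interaction of 1.03 ± 0.27 passed (adjusted p = 0.0111).

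KCNQ1OT1, the antisense RNA that silences its imprinted cluster, held 2.54, 3.45 and 2.08 CPM in CR31B replicates 2, 3 and 4 and 3.83, 3.49 and 3.19 CPM in DMSO. The pair differences were -0.59, -0.02 and -0.61, so pair 3 hardly differed. The log2 fold change was -0.37 ± 0.18 (adjusted p = 0.119), and with the replicate block the adjusted p was 0.0422. In pair 1 it stood at 2.84 CPM in CR31B and 2.32 CPM in DMSO. KCNQ1, which it overlaps on the other strand, had 0 to 2 counts.

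MALAT1, the nuclear speckle RNA, held 191, 178 and 146 CPM in CR31B replicates 2, 3 and 4 and 198, 193 and 186 CPM in DMSO. CR31B replicate 2 lay within the DMSO range and replicate 4 furthest below it. The log2 fold change was -0.16 with a 95% interval of -0.35 to 0.03 (adjusted p = 0.160), and with the replicate block the adjusted p was 0.0263. In pair 1 MALAT1 stood at 148 CPM in CR31B and 138 CPM in DMSO.

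NEAT1, the paraspeckle scaffold, differed between pairs more than between treatments. The single-end libraries held 20.9, 26.7 and 21.6 CPM in CR31B and 18.2, 21.9 and 24.2 CPM in DMSO, and the groups overlapped. Both libraries of pair 1 stood at 10.9 CPM, 0.490 times the mean of the other 6, and below each of them. MIR17HG and CASC15 were also below the other 6 in both replicate 1 libraries. The treatment difference of NEAT1 in pairs 2 to 4 was 0.11, with a 95% interval of -0.15 to 0.37 (adjusted p = 0.489), and its sign turned to -0.09 with offsets for GC content and exon length.

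CASC15 held 16.9, 26.9 and 21.0 CPM in CR31B replicates 2, 3 and 4 and 16.4, 21.0 and 18.4 CPM in DMSO. All 3 pairs were above 0, at 0.05, 0.36 and 0.19, and the groups overlapped. The log2 fold change was 0.22 with a 95% interval of -0.11 to 0.55 (adjusted p = 0.269). It passed with the replicate block (adjusted p = 0.0268), while offsets for GC content and exon length turned it to -0.02. In pair 1 CASC15 stood at 13.8 CPM in CR31B and 12.5 CPM in DMSO.

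NBAT1, which lies inside CASC15 on the other strand, held 0.114, 0.535 and 0.448 CPM in CR31B replicates 2, 3 and 4 and 0.356, 0.474 and 0.350 CPM in DMSO. Its pair differences were -1.49, 0.17 and 0.34. The log2 fold change was -0.11 with a 95% interval of -1.06 to 0.84 (adjusted p = 0.859), so a difference in either direction was not excluded. Pair 1 held 0.461 CPM in CR31B and 0.431 CPM in DMSO.

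**Figure D4:**
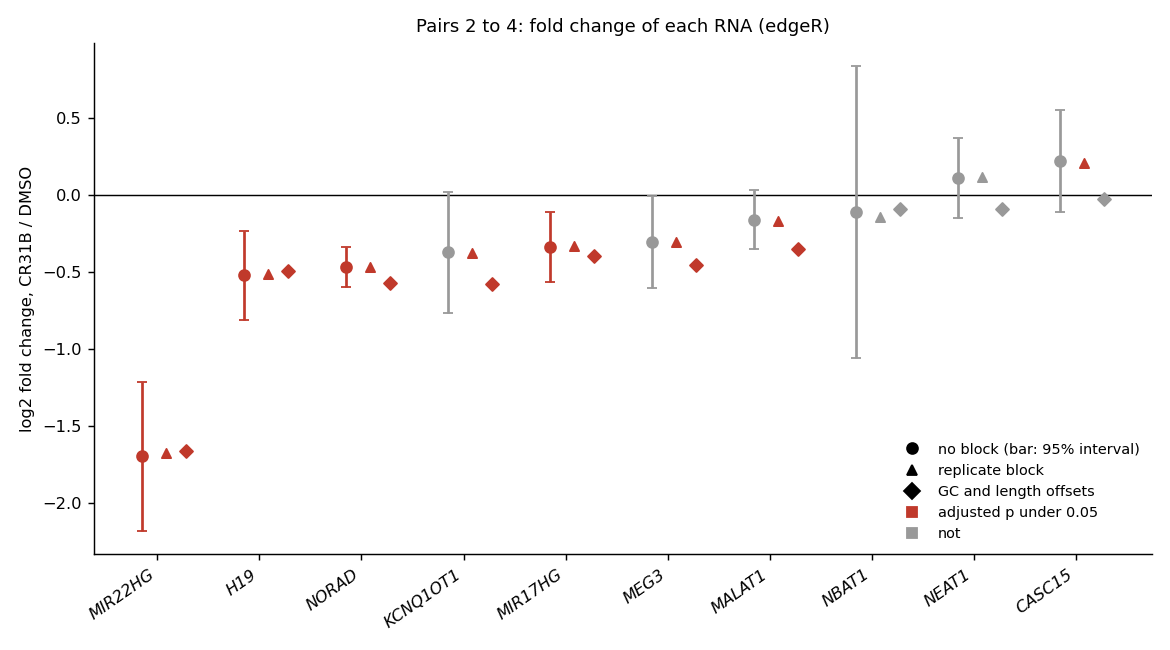
Log2 fold change of CR31B over DMSO in pairs 2 to 4 for each RNA: circles with 95% intervals are the fit without a block, triangles the fit with the replicate block and diamonds the fit with GC and length offsets, red where the adjusted p is under 0.05. MIR22HG, H19, NORAD and MIR17HG are red in all 3 fits, and NEAT1 and CASC15 change sign between fits.

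With the replicate block, 8 of the 10 members passed in pairs 2 to 4, 7 as lower and CASC15 as higher, and 8540 of the 16696 genes. Deviations of same-numbered single-end libraries from their group means correlated at 0.157 to 0.384. The block values are therefore given beside each named call, and each list count below, that they change. With offsets for GC content and exon length, MALAT1 (-0.35), MEG3 (-0.45) and KCNQ1OT1 (-0.58) passed as lower without the block, with adjusted p of 0.0129, 0.0279 and 0.0218.

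Genes tied to the members by function were counted in pairs 2 to 4, where 23.8% of all genes were higher and 17.6% lower. 0 genes of these lists passed in the fit of all 8 libraries. Of 18 paraspeckle proteins tested, 5 rose and 4 fell, with a median log2 fold change of 0.03, and with the replicate block 8 rose and 5 fell. NONO, which coats NEAT1, rose by 0.67, and CPSF6, the cleavage factor subunit that favours the short NEAT1 form, fell by 0.75 (adjusted p = 4.21e-05 and 5.67e-06). The splicing regulator HNRNPH3 rose by 0.43 and the paraspeckle protein SS18L1 fell by 0.43. Of the other proteins, named after their values were seen, SFPQ was at -0.34 and PSPC1 at 0.23. In pair 1 NONO was at -0.68 and CPSF6 at 0.75.

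Of 18 nuclear speckle proteins tested, 8 rose and 2 fell, with a median of 0.14, and with the replicate block 10 rose and 2 fell. The splicing factors SRSF3 and BCLAF1 rose by 0.66 and 0.65, SRRM2, a core speckle protein, by 0.40 and MFAP1, a spliceosome protein, by 0.28. Under upper quartile scaling, which moved the median of all genes from -0.01 to -0.10, 4 of the speckle genes rose and 2 fell, and 4 paraspeckle genes rose and 7 fell. A list of 13 tested genes held the RNase P and related enzymes that cut the 3′ ends of MALAT1 and NEAT1, with the microRNA-processing genes DROSHA and DGCR8 and the RNA-binding methyltransferase METTL16. Of these 4 rose and 2 fell, and DROSHA and DGCR8, named after their values were seen, were among the 4. With the replicate block 5 rose and 2 fell. The RNase P subunit genes RPP14 and RPP38 rose by 0.79 and 0.38 and POP5 fell by 0.33, and RPP25 was at 0.44 (adjusted p = 0.104, and 0.0101 with the replicate block). RPP14 shares 22.5% of its exon bases with other genes of its strand.

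Of 7 known protein partners of NORAD, 4 rose and 1 fell, with a median of 0.25. PUM2 rose from 260.2 ± 4.40 to 309 ± 6.00 CPM (SD, n = 3; log2 0.25 ± 0.05, adjusted p = 0.00161). The RNA-binding protein RBMX and the spliceosome protein CDC5L rose by 0.32 and 0.46, and KHDRBS1, an RNA-binding signalling protein, fell by 0.46. With offsets for GC content and exon length, PUM2 (0.10, adjusted p = 0.134) and RBMX (0.19, adjusted p = 0.0519) did not pass. In pair 1, PUM2 was at -0.22. NORAD and PUM2 stood on opposite sides in all 4 pairs. The treatment-by-layout interaction passed for 42.5% of tested genes, so their opposite signs in pair 1 add no separate evidence. A link between NORAD and PUM2 was not tested.

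All 5 genes listed as effectors of NBAT1 and CASC15 were tested, and 4 rose. SOX9, a neural crest and glial factor, rose from 11.3 ± 4.41 to 31.9 ± 14.7 CPM (log2 1.50 ± 0.33, adjusted p = 0.00436). CHD7, a chromatin remodeller of the neural crest, rose by 0.71, the neuronal gene repressor REST by 0.60 and the nucleolar deubiquitinase USP36 by 0.44. EZH2 was at 138 ± 9.19 CPM in DMSO and 137 ± 10.3 CPM in CR31B, a log2 fold change of -0.00 ± 0.07 (adjusted p = 0.983).

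Among 13 tested genes that neighbour the members on the chromosome, 1 rose and 4 fell, and with the replicate block 2 rose and 7 fell. SOX4, a transcription factor gene next to CASC15, rose from 169 ± 15.0 to 382 ± 49.3 CPM, with pair differences of 1.01, 1.18 and 1.32 (log2 1.18 ± 0.09, adjusted p = 7.04e-06). In pair 1 SOX4 stood at 176 CPM in CR31B and 374 CPM in DMSO. CASC15 and NBAT1, in the same region, did not pass. Beside NEAT1 and MALAT1, the gene FRMD8, which keeps the iRhom proteins at the membrane, fell by 0.25 and LTBP3, a binder of latent TGF-beta, by 0.27. WDR81, beside MIR22HG, fell by 0.29, and MRPL23, a mitochondrial ribosomal gene beside H19, by 0.28. IGF2, the imprinted partner of H19, had 4 to 15 counts. It shares 73.7% of its exon bases with other genes of its strand, and how reads there were counted is not stated. In the KCNQ1OT1 domain the growth inhibitor CDKN1C was at -0.33 (adjusted p = 0.0512) and PHLDA2 at -0.46 (adjusted p = 0.0550), and with the replicate block both passed (adjusted p = 0.0116 and 0.0159).

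**Figure D5:**
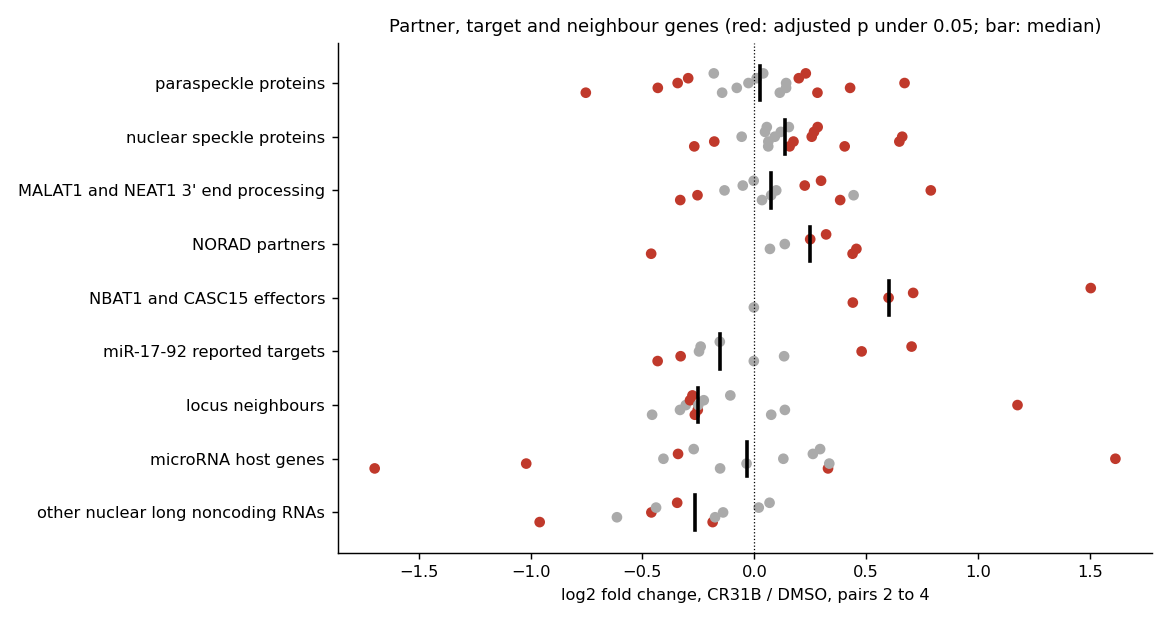
Log2 fold change of CR31B over DMSO in pairs 2 to 4 (horizontal axis) for the tested genes of each list (rows); red points have an adjusted p under 0.05 and the bar is the list's median. SOX4 is the neighbour gene at 1.18, and MIR22HG the host gene at -1.70.

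Of 9 reported targets of the miR-17-92 cluster tested, 2 rose and 2 fell, with a median of -0.15. With the replicate block 3 rose and 3 fell. SMAD4, the shared mediator of TGF-beta signalling, rose by 0.70, while E2F1, a cell cycle factor, and BCL2L11, which promotes cell death, fell by 0.43 and 0.33. Of 13 microRNA host genes tested, 2 rose and 3 fell, and 2 of the 3 were MIR22HG and MIR17HG. The other was MIR210HG, the host of a hypoxia-induced microRNA, at -1.02 from 6 to 30 counts (adjusted p = 0.0290). MIR100HG rose by 1.61 from 6 to 74 counts (adjusted p = 0.0309). MIRLET7BHG was at -0.41 (adjusted p = 0.0523, and 0.0335 with the replicate block). With the block 3 of the host genes rose and 4 fell.

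Of 10 other nuclear long noncoding RNAs tested, 4 fell and 0 rose, with a median of -0.27. With the replicate block 6 fell and 0 rose, and with offsets for GC content and exon length 7 fell. MIAT, a neuronal nuclear RNA, fell from 61.5 ± 11.1 to 31.5 ± 6.08 CPM (log2 -0.96 ± 0.15, adjusted p = 0.000482), and stood at 40.3 CPM in CR31B and 16.2 CPM in DMSO in pair 1. FTX, a noncoding gene of the X-inactivation centre, fell by 0.46. MEG8, which lies in the same imprinted cluster as MEG3, was at -0.61 (adjusted p = 0.116, and 0.0232 with the replicate block). LINC-PINT was at -0.44 (adjusted p = 0.139).

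The genes whose log2 CPM followed each member most closely over the 8 libraries were listed as a description; all points share the depth, scaling and reversed pair 1 of those libraries. For NORAD these were FKBP1A (Pearson r = 0.996), C19orf12 (0.994) and RPS26 (0.993), a ribosomal gene with processed copies in the genome. For MIR22HG they were TSPAN14 (0.994), LINC00839 (0.992) and AP000553.2 (0.991). For H19 they were the translation factor EIF4B (0.978), NUAK2 (0.968) and CALD1 (0.967). For NEAT1 they were AC005041.3 (0.993), ING5 (0.984) and VAV3 (0.979), and for MEG3 HHAT (0.986), THAP12P7 (0.975) and NCAN (0.973).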

How the data were processed

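RNA was sequenced in 8 libraries of IMR32 cells, 4 per group, from 250 ng of RNA with 15 PCR cycles and 75 read cycles, per the labels' protocols, which call the replicates biological. The labels name a small RNA kit and polyadenylated RNA as the molecule. The authors deposited raw read counts per Ensembl gene. STAR 2.7.2b, FastQC 0.11.7, edgeR 3.36.0, limma 3.50.3 and GRCh38 are named in the submitters' processing notes, with no role given; the counting tool and strand setting are not stated in the sources used here, though the deposited table's name carries the word reverse. No molecular identifiers are described, so precision from depth covers counting error only.

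Of 58787 identifiers 58515 matched GENCODE 29. Counts were tested in edgeR 4.0.16 (R 4.3.3; glmQLFit, glmQLFTest, two-sided) after filterByExpr and TMM scaling, with Benjamini-Hochberg adjustment over all tested genes and a threshold of 0.05. All 8 libraries were fitted with layout as covariate, the 6 single-end libraries without covariates, and the interaction of treatment and layout over all 8. For pair differences, CPM were logged to base 2 after a prior count of 1. The procedure was tested on simulated data. Alternatives used limma 3.58.1 and DESeq2 1.42.0, other scalings and filters, GC and length offsets (loess span 0.3), a replicate block and each library left out. The replicate numbers were taken to pair the libraries. Deviations from the group means correlated at 0.206, 0.384 and 0.157 between same-numbered single-end libraries, and differently numbered libraries were not compared in this way. No 2 libraries were alike within counting noise (smallest mean chi-square 7.16 over 28 library pairs).

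The members and lists were chosen with earlier results of these data known. All members are named. Of each list up to 4 tested genes with the largest absolute fold change are named, and any tested neighbour, NORAD partner or NBAT1 and CASC15 effector may be; 3 genes per member were listed by Pearson r. Some list genes that the rule names are counted but not reported here by name.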

Additional observations from a re-analysis of the deposited data

Results flagged for a closer look

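The difference between pair 1 and pairs 2 to 4 was tested by the treatment-by-layout interaction. By edgeR's quasi-likelihood test it passed for 5 members, and for 42.5% of the 16518 genes tested. As log2 values, pair 1 minus pairs 2 to 4, it was 3.79 for MIR22HG, 1.06 for NORAD, 1.03 for MEG3, 0.95 for H19 and 0.79 for MIR17HG. All 5 were higher in CR31B in pair 1 and lower in pairs 2, 3 and 4. Genes such as NONO (-0.68 in pair 1, 0.67 in pairs 2 to 4) and CHD7 (-0.67 and 0.71) ran the same mirrored course. An exchange of the pair 1 labels, the layout and the replicate itself cannot be told apart, and no label was changed.

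MIR22HG in CR31B replicate 1 lay far from the other 3 CR31B libraries: its gap to the nearest was 0.857 of the range of the group, above Dixon's 95% critical value for 4 samples. Of 20 groups of 4 values (10 members, 2 treatments) tested this way, chance flags about 1 in 20.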

How the results depend on the processing

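In pairs 2 to 4, MIR22HG, NORAD and H19 kept their direction and passed in 16 of 16 alternatives each, and MIR17HG in 12. The members that passed numbered 4, against 7 with no filter on low counts (7 lower) and 8 with the replicate block (7 lower, 1 higher). GC and length offsets gave 7, with or without the block (7 lower). Over all genes, 6901 of 16696 passed, against 7326 of 29503 with no filter and 8540 of 16696 with the block. The offsets gave 6720 of 16673 genes without the block and 8556 of 16673 with it. The block changed none of the 4 calls made without it. With these offsets NEAT1 turned to -0.0907 and CASC15 to -0.0243, and with offsets and block to -0.0860 and -0.0340. In the fit of 8 libraries NEAT1 turned to -0.0214 with offsets and -0.0182 with offsets and block. Upper quartile scaling gave 4509 lower genes against 2933, and moved the share of higher calls from 57.5% to 40% (43.1% with total counts).

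With all 8 libraries, leaving out both replicate 1 libraries gave 6901 genes, 3968 higher and 2933 lower, with 4 members called, 4 of them lower. Leaving out each library in turn gave 0 to 6920 genes, 0 to 3974 higher and 0 to 2954 lower. Members called were 0 to 4, with 0 to 4 lower. Only leaving out CR31B or DMSO replicate 1 moved these from 0. The layout term then fits the remaining replicate 1 library by itself, so such a fit rests on pairs 2 to 4 by design. Over all the fits with a library left out, NBAT1 lay between -0.33 and 0.26, NEAT1 between -0.0096 and 0.15 and MEG3 between -0.31 and 0.10. In pairs 2 to 4 the ranges were -0.54 to 0.32 for NBAT1, -0.0086 to 0.21 for NEAT1 and -0.0579 to 0.0490 for EZH2, and 0 to 1 members were higher, CASC15 without CR31B replicate 2 (0.37). NBAT1 gave no value with a minimum of 1 CPM. The cause of the other shifts was not tested. Among the list genes named as changed, MIR100HG passed in 9 of 15 alternatives, MIR210HG in 10 of 15, FRMD8 in 13 and RBMX and PUM2 in 15 of 16 each. Low counts limit NBAT1, MIR210HG, MIR100HG and MEG8.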
